A study of Homo sapiens with 8 samples.

Results

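Open chromatin was examined at the 7 genes that make up the nuclear output of the Hippo pathway: YAP1, its paralogue WWTR1 (which encodes TAZ), TEAD1, TEAD2, TEAD3, TEAD4 and VGLL4. Members were all peaks that overlapped the RefSeq body of one of these genes or the 20 kb on either side of it, a rule that uses position and no measured value. It found 106 of the 129536 peaks in the authors' table: 13 at YAP1, 20 at WWTR1, 32 at TEAD1, 8 at TEAD2, 6 at TEAD3, 8 at TEAD4 and 19 at VGLL4. All 106 passed the filter on low counts. The outermost member lay 19.2 kb beyond TEAD1 (log2 fold change -0.30), and the nearest peak left out lay 20.5 kb from TEAD3 (log2 fold change -0.20).

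The assay was Omni-ATAC-seq: in isolated nuclei, a transposase inserts adapters where DNA is open. The 4 vehicle libraries and the 4 sorbitol libraries all came from HEK293 human embryonic kidney cells of genotype eGFP-YAP, so the controls carry the tagged YAP as well. Per the series description, cells were held without serum for 1 h before the stress. The sorbitol group had 200 mM sorbitol for 1 h, which draws water out of the cells. The controls are labelled vehicle, although the protocol text calls them untreated. Their count columns are named 0 h and those of the sorbitol group 1 h. No vehicle group at 1 h is given, so an effect of sorbitol cannot be told apart from one of that added time. The labels do not say how eGFP-YAP was introduced, whether the line is a single clone, or whether replicates are separate cultures, so the p-values below measure the spread between these libraries, which may be technical. In each group the library names carry a pair of numbers that place 2 libraries under each of 2 first numbers, and what these stand for is not stated. If they mark units with repeat libraries, n = 4 overstates the number of independent units. With libraries of the same first number summed (2 against 2), 21 members were higher and 11 lower, and the same count of 5 gene totals was called. The sample titles and library names point to HEK293 and "wt", whereas the genotype field gives eGFP-YAP. Bulk libraries cannot tell a change in the share of open alleles from a change in how open each one is, nor fewer cells with an open site from less signal per cell.

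YAP and TAZ are transcriptional coactivators without a DNA-binding domain. The Hippo kinases phosphorylate them and hold them in the cytoplasm, and in the nucleus they bind TEAD1 to TEAD4, which contact DNA at the sequence GGAATG and its relatives. VGLL4 binds TEAD proteins through its own Tondu motifs and competes with YAP for them. Hyperosmotic stress is known to alter YAP phosphorylation and localisation, and nuclear YAP to form condensates in stressed cells. These are properties of the proteins, and the peaks described here are at the genes that encode them.

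The sequences just before the start sites are shown first, because the peaks over them behaved differently between genes. RefSeq promoter windows (GRCh38.p14, 250 bases before to 50 after a start) were found for 5 of the 7 genes, 11 windows in all. Each line below gives the 250 bases before a start, 5′ to 3′ on the gene's strand. Capitals mark matches on either strand to GGAATG (the TEAD site), TGANTCA (the AP-1 site), TGGAAA (the core of the element bound by the tonicity factor NFAT5) or GGGCGG (the GC box). No match overlapped a match to another of these motifs.
YAP1, chr11:102110197-102110446, plus strand: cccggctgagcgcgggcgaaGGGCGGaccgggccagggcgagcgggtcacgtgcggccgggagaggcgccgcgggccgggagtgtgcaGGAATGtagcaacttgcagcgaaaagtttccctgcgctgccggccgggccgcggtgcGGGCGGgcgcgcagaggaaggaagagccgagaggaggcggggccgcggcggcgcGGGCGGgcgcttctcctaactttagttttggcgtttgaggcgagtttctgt
WWTR1, chr3:149658026-149658275, minus strand: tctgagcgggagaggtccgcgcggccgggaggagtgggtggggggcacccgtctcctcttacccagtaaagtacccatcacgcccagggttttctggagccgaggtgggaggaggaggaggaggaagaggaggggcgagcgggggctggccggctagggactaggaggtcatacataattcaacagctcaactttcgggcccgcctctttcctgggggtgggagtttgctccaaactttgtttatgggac
TEAD3, chr6:35497080-35497329, minus strand: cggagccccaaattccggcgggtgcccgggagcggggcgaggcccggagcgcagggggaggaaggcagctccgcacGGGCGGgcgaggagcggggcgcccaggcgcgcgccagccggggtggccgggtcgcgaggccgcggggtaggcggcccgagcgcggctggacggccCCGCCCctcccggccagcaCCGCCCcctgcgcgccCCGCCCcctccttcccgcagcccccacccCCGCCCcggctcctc
VGLL4 outer start, chr3:11720540-11720789, minus strand: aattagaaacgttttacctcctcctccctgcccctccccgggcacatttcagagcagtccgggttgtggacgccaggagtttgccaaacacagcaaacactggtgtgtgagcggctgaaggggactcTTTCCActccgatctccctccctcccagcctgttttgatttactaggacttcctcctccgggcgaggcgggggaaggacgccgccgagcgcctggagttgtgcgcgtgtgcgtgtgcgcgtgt
VGLL4 inner start, chr3:11643916-11644165, minus strand: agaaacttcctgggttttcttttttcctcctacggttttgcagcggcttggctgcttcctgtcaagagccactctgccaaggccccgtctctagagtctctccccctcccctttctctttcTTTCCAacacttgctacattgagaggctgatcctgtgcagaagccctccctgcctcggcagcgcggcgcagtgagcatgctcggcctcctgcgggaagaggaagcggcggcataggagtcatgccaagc
YAP1 is shown because its window was the only 1 of the 11 to hold GGAATG, which begins 162 bases before the start. That motif was in 14.0% of all 35116 RefSeq windows of this length. TEAD3 carried GGGCGG at 5 positions, and 6 of the 11 windows had it, beside 45.0% of all windows. TGGAAA was in 5 of the 11 windows, among them both VGLL4 starts shown, beside 20.7% of all windows. Apart from a TEAD2 window, all windows with TGGAAA were of VGLL4, a gene that supplies 5 of the 11. TGANTCA was in none of the 11, beside 7.71% of all. The WWTR1 window held none of the 4 motifs. A match describes letters and is not evidence of binding.

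The libraries held 11522266 to 19831471 counts in peaks, fewer after sorbitol (at most 14355727) than in vehicle (at least 14757015). The first principal component (46.8% of variance) separated the treatments, and the next (11.5%) set vehicle 4 (score 60.5) apart from sorbitol 4 (score -68.6). Leaving out both of these libraries gave 18 members higher and 11 lower, against 20 and 10 with all 8. Gene-end peaks were found at 5 of 6 kidney or embryonic factors (the exception was PAX2), 3 of 5 gut epithelium genes and 2 of 6 genes of other cell types (MYOD1 at 21.2 CPM and PTPRC at 1.16 CPM), so this check does not identify the cell line.

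Among the 106 members, 20 were higher and 10 were lower in the sorbitol libraries (edgeR quasi-likelihood test, Benjamini-Hochberg adjusted p under 0.05 over all 129487 tested peaks), and 76 were not called. The called share, 28.3%, lies near the 29.1% of all tested peaks. By direction, the background was 16.0% higher and 13.1% lower. The members' median log2 fold change was 0.03, beside 0.01 for all tested peaks and -0.02 for peaks in the same window of any protein-coding gene. The calls differed in direction between genes. YAP1 (4 of 13 peaks), WWTR1 (6 of 20) and TEAD1 (5 of 32) had 15 higher peaks and none lower. TEAD2 and TEAD4 (3 of 8 each) had 6 lower and none higher. TEAD3 (3 higher and 2 lower of 6) and VGLL4 (2 and 2 of 19) had both. The TEAD1 share, 15.6%, lay near the 16.0% of all peaks, and the TEAD1 median was 0.01. At least 2-fold changes were called at 5 higher and 2 lower members, where the shares over all peaks were 5.27% and 0.881%. CPM values (counts scaled to the library's total) of the groups did not overlap at 29 members, 27.4%, beside 26.8% of all peaks. Higher peaks made up 54.9% of all calls here, and 79.7% when libraries were scaled on gene-end peaks (those at most 1 kb from where a RefSeq gene begins or ends), a scaling under which the all-peak median moved to 0.19 and the members had 30 higher and 7 lower. When scaled on peaks of unplaced and unlocalized contigs, 8 members were higher and 5 lower.

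**Figure D1:**
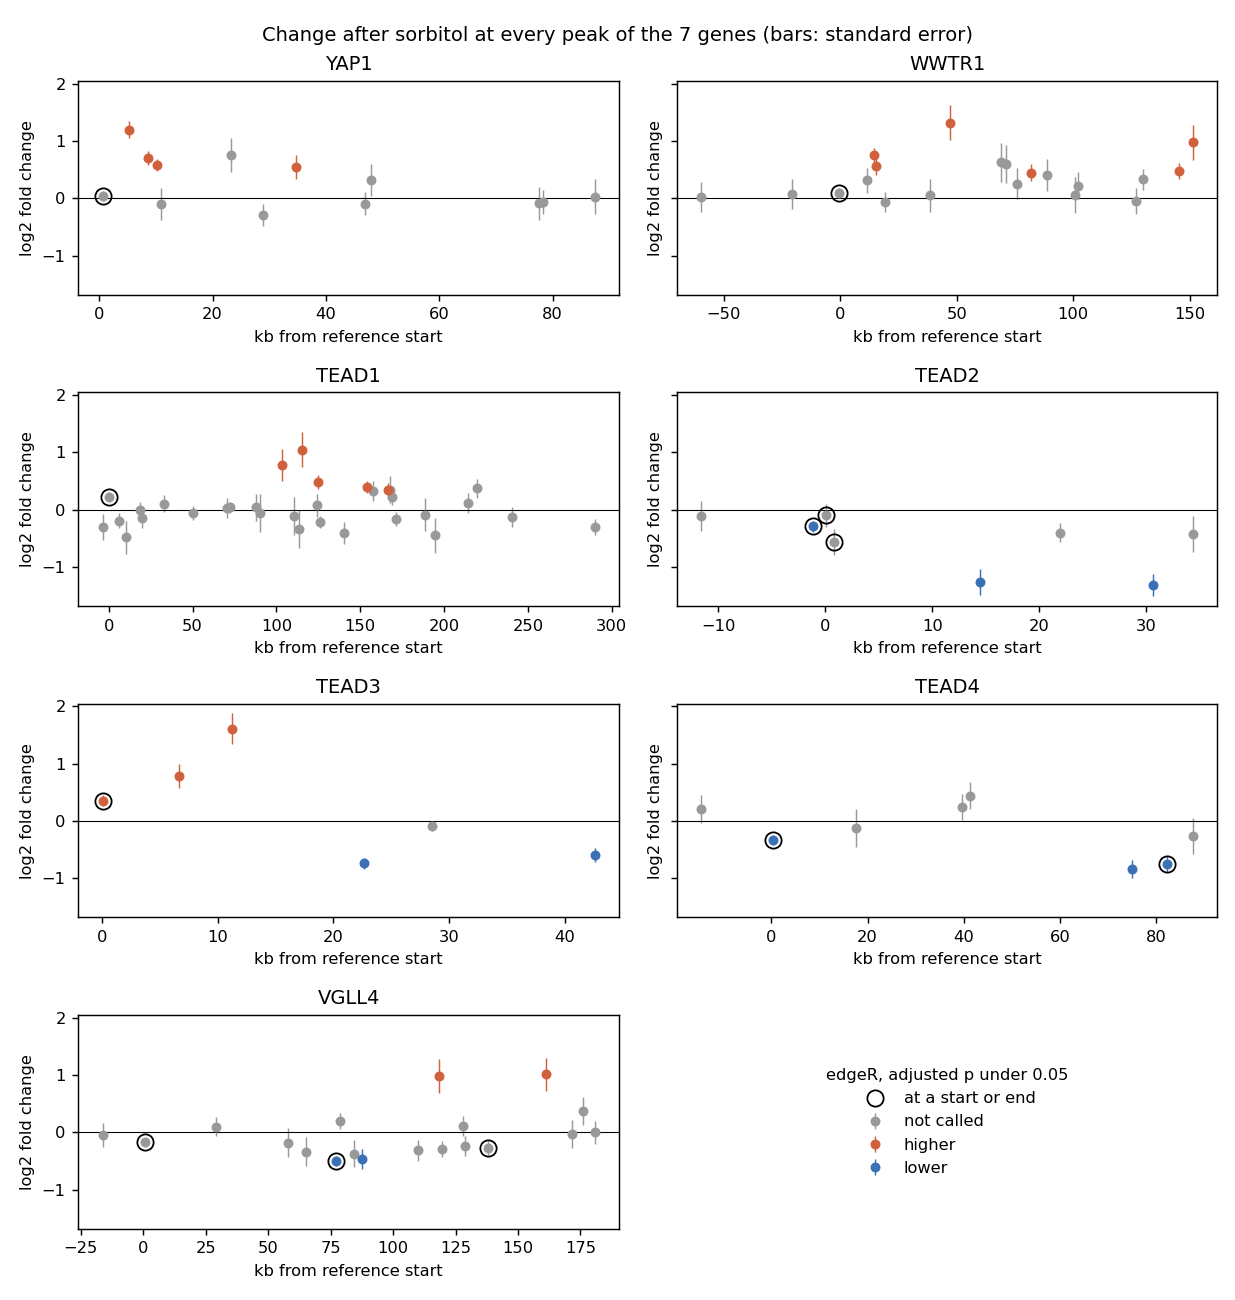
Log2 fold change (vertical) of each of the 106 peaks against its distance in kb from the reference start of its gene (horizontal), with edgeR standard errors as bars; distances for TEAD1 and TEAD4 are measured from their lower-coordinate end. Orange points are called higher and blue points lower at an adjusted p under 0.05; YAP1, WWTR1 and TEAD1 have only orange calls, TEAD2 and TEAD4 only blue ones.

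YAP1 encodes YAP itself and spans chr11:102110447-102233424 on the plus strand. Its start peak (chr11:102109866-102112317, 2451 bp, also near the divergent transcript YAP1-DT) was the strongest of the gene, with vehicle libraries 1 to 4 at 58.7, 53.9, 56.98 and 60.9 CPM and the sorbitol libraries at 58.3, 63.6, 58.6 and 69.9 CPM. The groups overlapped (log2 fold change 0.04, standard error 0.08, edgeR adjusted p = 0.744). Without sorbitol 4 the estimate turned to -0.04, and with gene-end scaling it was 0.21 and passed the threshold. Inside the gene the picture differed. The peak centred 5.31 kb past the start (chr11:102115605-102115904) had vehicle libraries 1 to 4 at 3.61, 4.60, 3.58 and 3.73 CPM and the sorbitol libraries at 10.6, 9.64, 9.36 and 8.29 CPM. Every sorbitol library lay above every vehicle library, a 2.29-fold rise (log2 fold change 1.20, standard error 0.15, edgeR adjusted p = 1.57e-08).

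A pair of other peaks in the same stretch of YAP1 rose too. At 8.61 kb (chr11:102118798-102119312) the level was 7.95 ± 1.01 CPM in vehicle and 13.7 ± 0.794 CPM after sorbitol (SD, n = 4), and this rise was called as well. Its statistics were: log2 fold change 0.70, standard error 0.12, edgeR adjusted p = 1.48e-05. At 10.11 kb (chr11:102120038-102121077) the vehicle libraries had 14.5, 14.5, 14.1 and 12.9 CPM and the sorbitol libraries 22.6, 23.9, 17.3 and 24.7 CPM. Sorbitol 3 was the lowest of its group and still above all vehicle values (log2 fold change 0.58, standard error 0.11, edgeR adjusted p = 2.86e-05). The next peak, at 10.87 kb (chr11:102121215-102121426), was not called, with 1.81 CPM in vehicle and 1.80 CPM after sorbitol (log2 fold change -0.10, standard error 0.27, edgeR adjusted p = 0.834). A weaker peak at 34.69 kb passed (log2 fold change 0.55, standard error 0.21, edgeR adjusted p = 0.0448). The 9 YAP1 peaks not called had log2 fold changes from -0.29 to 0.76, among them the one at 28.89 kb (chr11:102139086-102139592), the fifth strongest of the gene, with 3.65 ± 0.321 CPM in vehicle and 3.15 ± 0.439 CPM after sorbitol (SD, n = 4).

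Because the cells carry eGFP-YAP, reads from a complementary DNA copy, if the tag was introduced as one, would map to YAP1 exons, and the YAP1 peaks were examined for signal that stands out. Exon positions inside the gene were not analysed here, so peaks were compared by place, width and signal density. Density is the CPM per 100 bp of peak width averaged over the 8 libraries. The start peak spans the start site at 102110447 and so the beginning of the first exon. It had 2.45 CPM per 100 bp, higher than 63.9% of 13820 start peaks of protein-coding genes. By CPM per peak it was higher than 92.1% of them. The 12 other YAP1 peaks ranged from 0.481 to 2.23 with a median of 0.791, beside a median of 0.692 in 51487 peaks inside protein-coding genes and away from gene ends. Over all 8 libraries, 2 of these 12 lay above the 95th percentile of such peaks (1.82): the one at 5.31 kb (2.23) at the 97.5th percentile and the one at 8.61 kb (2.11) at the 96.9th. By CPM per peak, only the one at 10.11 kb lay above the 95th percentile, at the 97.7th. By density that peak was at the 94.2nd. Those at 5.31 and 8.61 kb were at the 84.8th and 93.4th by CPM per peak. No peak away from the start passed on both measures. The highest density away from a start in the other 6 genes was 3.07, in TEAD1. In vehicle no YAP1 peak away from the start passed the 95th percentile of vehicle densities (1.82; highest YAP1 value 1.55). After sorbitol, the peaks at 5.31, 8.61 and 10.11 kb lay above the 95th percentile of 1.87, at 3.17, 2.67 and 2.13. These are 3 of the 4 called YAP1 peaks. The last 35.4 kb of the gene, which hold the end of the final exon, had no peak at all. Thus 2 internal YAP1 peaks passed the 95th percentile by density over all libraries, and none did so in vehicle alone. The average over all libraries takes in the sorbitol libraries, in which both were called higher. That count is therefore not separate from the called rise. Neither passed by CPM per peak. Whether any internal peak coincides with an exon was not tested.

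**Figure D2:**
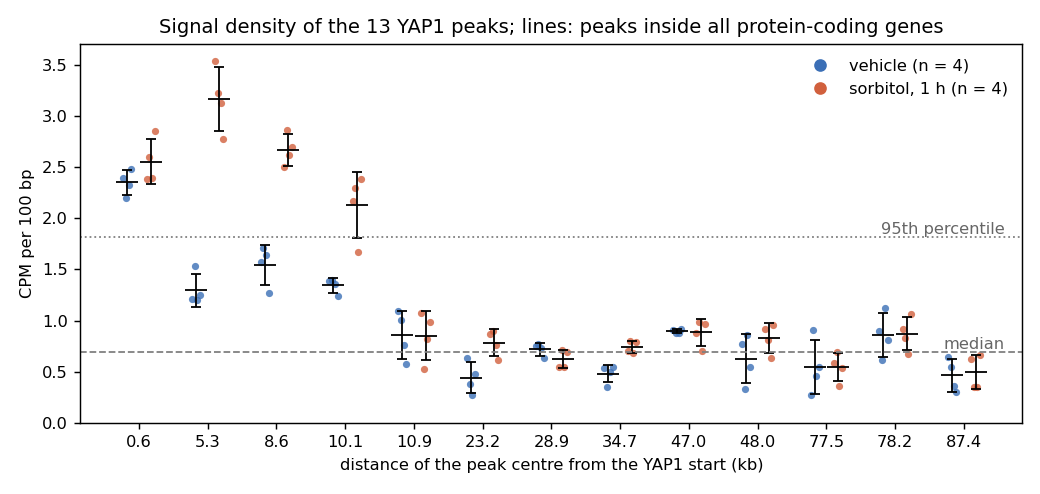
CPM per 100 bp of peak width (vertical) at each of the 13 YAP1 peaks, ordered by distance of the peak centre from the start in kb; points are libraries, dashes and bars the mean and SD of 4. Dashed and dotted lines mark the median (0.692) and 95th percentile (1.82) of peaks inside all protein-coding genes; away from the start, only the peaks at 5.31, 8.61 and 10.11 kb have a sorbitol mean above the dotted line.

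WWTR1 encodes TAZ, the second coactivator, and lies at chr3:149517235-149724788 on the minus strand. Of its 2 RefSeq promoter windows, the one whose start is at 149658025 was open and the one at 149703273 had no peak within 1 kb. The open start (chr3:149657537-149659056, shared with the antisense transcript WWTR1-AS1) had vehicle libraries 1 to 4 at 50.1, 59.6, 56.9 and 54.3 CPM and the sorbitol libraries at 60.5, 65.3, 58.1 and 66.8 CPM. The groups overlapped (log2 fold change 0.10, standard error 0.08, edgeR adjusted p = 0.376). With gene-end scaling the estimate was 0.28 and passed the threshold.

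A pair of adjacent peaks downstream of that start rose. The one 14.45 kb inside (chr3:149643120-149644025) had vehicle libraries 1 to 4 at 7.75, 7.30, 8.12 and 7.32 CPM and the sorbitol libraries at 13.9, 16.2, 11.6 and 13.2 CPM. The lowest sorbitol value was well above the highest vehicle value, a 1.70-fold rise (log2 fold change 0.77, standard error 0.12, edgeR adjusted p = 3.48e-06). Its neighbour at 15.21 kb went from 4.96 to 7.71 CPM (log2 fold change 0.56, standard error 0.15, edgeR adjusted p = 0.00359). The largest relative change was at a weak site 47.17 kb inside (chr3:149610690-149611026), with vehicle libraries 1 to 4 at 1.05, 0.632, 1.01 and 0.610 CPM and the sorbitol libraries at 1.91, 1.75, 3.29 and 1.95 CPM. Sorbitol 3 was far above the other sorbitol libraries there (log2 fold change 1.32, standard error 0.31, edgeR adjusted p = 0.000822). The other 3 called peaks lay 81.86, 145.54 and 151.36 kb from the start, the farther pair in the flank beyond the gene, with log2 fold changes of 0.45, 0.48 and 0.98. The 14 WWTR1 peaks not called ranged from -0.07 to 0.63, so 18 of its 20 estimates were above 0.

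TEAD1, the TEAD gene with the most peaks here, spans chr11:12674421-12944737. TEAD1 and TEAD4 are described from their lower-coordinate end. The peak at that end of TEAD1 (chr11:12673880-12675359) had vehicle libraries 1 to 4 at 19.97, 24.6, 24.4 and 22.97 CPM and the sorbitol libraries at 26.1, 30.98, 25.1 and 31.3 CPM. All sorbitol values were above all vehicle values in CPM, but the edgeR test, which rescales the libraries, did not call it (log2 fold change 0.22, standard error 0.09, edgeR adjusted p = 0.0685). It passed as higher with scaling on library totals (0.30) or gene-end peaks (0.40), and without sorbitol 1 (0.26) or sorbitol 3 (0.27). The 5 called peaks were all higher and lay between 103.18 and 166.5 kb from that end. The smallest p-value belonged to chr11:12799123-12799872, with vehicle libraries 1 to 4 at 10.1, 8.16, 8.02 and 7.66 CPM and the sorbitol libraries at 14.3, 14.2, 11.5 and 10.3 CPM (log2 fold change 0.48, standard error 0.13, edgeR adjusted p = 0.00296). The largest change was at a weak site, chr11:12789781-12790105, with vehicle libraries 1 to 4 at 1.12, 0.632, 1.26 and 0.949 CPM and the sorbitol libraries at 2.34, 2.47, 2.86 and 1.18 CPM; sorbitol 4 fell among the vehicle values (log2 fold change 1.05, standard error 0.30, edgeR adjusted p = 0.00635). The remaining 27 peaks ranged from -0.48 to 0.38.

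TEAD2 lies at chr19:49340595-49362416 on the minus strand, next to DKKL1. The strongest peak within 1 kb of a TEAD2 start (chr19:49363107-49364125) is also close to DKKL1 and cannot be assigned to either gene alone. It had vehicle libraries 1 to 4 at 29.6, 30.6, 22.2 and 24.9 CPM and the sorbitol libraries at 24.8, 24.1, 22.5 and 21.7 CPM. The groups overlapped, and the small decrease was called (log2 fold change -0.29, standard error 0.10, edgeR adjusted p = 0.0206) but not with scaling on library totals or gene-end peaks (-0.20 and -0.11), nor without vehicle 1 (-0.24), vehicle 2 (-0.21) or sorbitol 3 (-0.27). The peaks that overlap the TEAD2 promoter windows themselves were weak, at 3.64 and 2.55 CPM over all libraries, and were not called. Both are also close to DKKL1. The stronger had a log2 fold change of -0.09 (standard error 0.20, edgeR adjusted p = 0.772). The weaker did not overlap between groups and fell just short of the threshold (log2 fold change -0.56, standard error 0.22, edgeR adjusted p = 0.0518). Larger decreases were found away from the start. An intragenic peak 14.45 kb inside (chr19:49347776-49348160) had vehicle libraries 1 to 4 at 3.35, 4.48, 3.33 and 3.59 CPM and the sorbitol libraries at 1.39, 1.83, 1.82 and 1.46 CPM. No values overlapped (log2 fold change -1.26, standard error 0.23, edgeR adjusted p = 2.45e-05). The flank peak inside SLC6A16, a transporter-family gene beyond the 3′ end of TEAD2 (chr19:49331547-49331963), had vehicle libraries 1 to 4 at 5.45, 5.81, 5.80 and 5.83 CPM and the sorbitol libraries at 2.26, 3.58, 1.91 and 1.95 CPM (log2 fold change -1.32, standard error 0.19, edgeR adjusted p = 4.85e-07). All 8 TEAD2 estimates were below 0.

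TEAD3 is a compact gene at chr6:35473597-35497079 on the minus strand. Of its 6 peaks, 5 were called, and they moved in opposite directions at its ends. The start peak (chr6:35496135-35497825, also within 1 kb of TULP1) had vehicle libraries 1 to 4 at 20.8, 20.2, 21.1 and 18.8 CPM and the sorbitol libraries at 26.5, 27.4, 26.7 and 29.2 CPM. Each sorbitol value exceeded each vehicle value (log2 fold change 0.36, standard error 0.09, edgeR adjusted p = 0.00213), and this was the only called increase among the 12 start peaks of the 7 genes (either end for TEAD1 and TEAD4). The peak at the other end of TEAD3, 22.62 kb from the start (chr6:35473834-35475085), had vehicle libraries 1 to 4 at 24.96, 25.3, 27.3 and 20.4 CPM and the sorbitol libraries at 14.7, 16.6, 16.2 and 14.9 CPM. It fell with no overlap (log2 fold change -0.74, standard error 0.10, edgeR adjusted p = 1.21e-07). Between them, a weak intragenic peak at 11.25 kb (chr6:35485704-35485961) had vehicle libraries 1 to 4 at 0.788, 1.03, 0.807 and 1.02 CPM and the sorbitol libraries at 2.95, 3.34, 2.51 and 3.00 CPM. It rose 3.05-fold, the largest change of all members (log2 fold change 1.61, standard error 0.27, edgeR adjusted p = 6.49e-06), and a peak at 6.7 kb rose as well (log2 fold change 0.79). In the flank, the peak shared by FANCE and RPL10A was not called, at 30.7 ± 0.919 CPM in vehicle and 30.7 ± 4.16 CPM after sorbitol (SD, n = 4), and a peak in FANCE fell (log2 fold change -0.59, standard error 0.12, edgeR adjusted p = 0.000129).

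TEAD4 spans chr12:2959397-3040676. The peak at its lower-coordinate end (chr12:2958533-2960938) had vehicle libraries 1 to 4 at 39.5, 42.7, 51.6 and 44.3 CPM and the sorbitol libraries at 40.4, 39.1, 35.98 and 34.2 CPM. The ranges overlapped slightly, since sorbitol 1 exceeded vehicle 1 (log2 fold change -0.34, standard error 0.09, edgeR adjusted p = 0.00223). With gene-end scaling this decrease was not called (-0.16). The peak 82.26 kb on, at the higher-coordinate end (chr12:3041320-3041989), had vehicle libraries 1 to 4 at 10.6, 10.8, 9.88 and 9.35 CPM and the sorbitol libraries at 8.59, 4.70, 7.20 and 5.36 CPM. All sorbitol values were lower (log2 fold change -0.75, standard error 0.14, edgeR adjusted p = 7.06e-05). An intragenic peak nearby, at 74.93 kb (chr12:3034097-3034553), had vehicle libraries 1 to 4 at 7.09, 7.47, 7.61 and 8.13 CPM and the sorbitol libraries at 3.91, 4.70, 5.72 and 3.76 CPM and fell without overlap (log2 fold change -0.83, standard error 0.15, edgeR adjusted p = 4.12e-05).

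VGLL4, the TEAD-binding competitor of YAP, spans chr3:11556067-11721815 on the minus strand and has 5 RefSeq promoter windows, of which 3 overlapped a peak. The outer start (chr3:11718447-11720875) was the strongest peak of all 106, with vehicle libraries 1 to 4 at 79.8, 78.9, 72.5 and 75.2 CPM and the sorbitol libraries at 73.6, 71.4, 71.2 and 71.8 CPM. It was not called (log2 fold change -0.17, standard error 0.08, edgeR adjusted p = 0.0800), but passed as lower without replicate 4 of both groups (-0.21). The inner start 77.19 kb downstream (chr3:11642496-11644199) had vehicle libraries 1 to 4 at 48.2, 44.7, 43.7 and 41.7 CPM and the sorbitol libraries at 31.2, 37.1, 30.1 and 35.5 CPM. There the groups did not overlap, and accessibility fell to 0.710 of the vehicle level (log2 fold change -0.49, standard error 0.09, edgeR adjusted p = 1.54e-05). The innermost open start (chr3:11581887-11583007) had 12.4 ± 1.18 CPM in vehicle and 10.8 ± 1.53 CPM after sorbitol (SD, n = 4) and was not called (log2 fold change -0.27, standard error 0.12, edgeR adjusted p = 0.0772). An intragenic peak at 87.46 kb was also lower (log2 fold change -0.46). Weak peaks at 118.53 kb and 161.05 kb were higher, with log2 fold changes of 0.99 and 1.02. The second of these (chr3:11559385-11559595, close to the neighbouring gene ATG7) had vehicle libraries 1 to 4 at 1.05, 0.805, 1.11 and 1.69 CPM and the sorbitol libraries at 3.30, 1.51, 1.99 and 3.06 CPM, and sorbitol 2 lay among the vehicle values. The other 15 peaks ranged from -0.37 to 0.37.

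**Figure D3:**
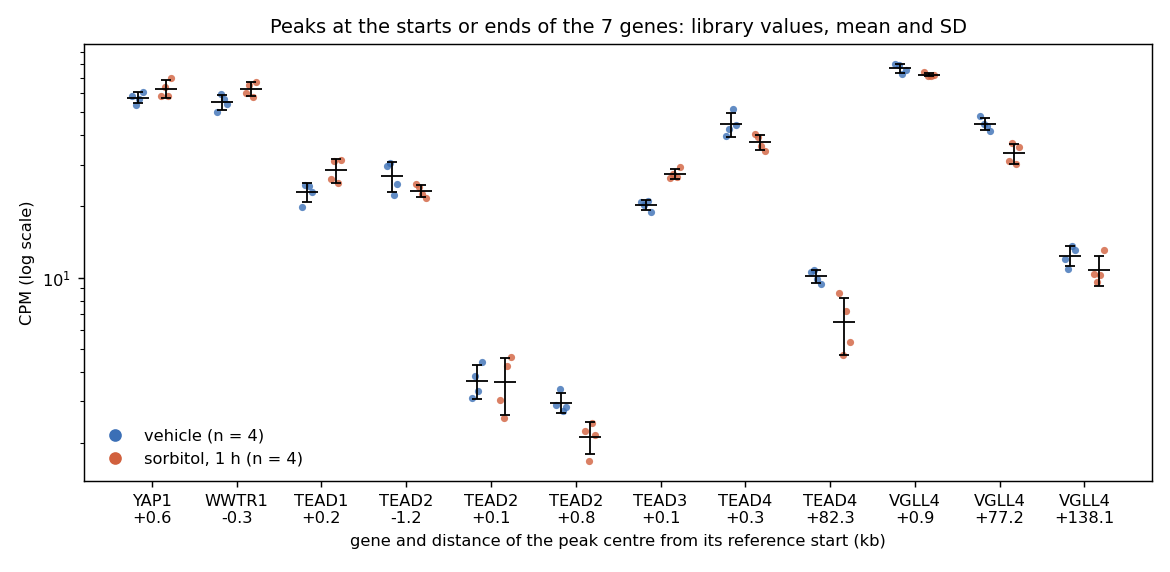
CPM on a log axis (vertical) of the 12 peaks within 1 kb of a RefSeq start, or of either end for TEAD1 and TEAD4; labels give the gene and the distance of the peak centre from its reference start in kb, points are libraries, and dashes with bars are the mean and SD of 4. Values stand apart without overlap at TEAD1, the +0.8 kb TEAD2 peak, TEAD3, the far end of TEAD4 and the inner VGLL4 start.

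Of these 12 start or end peaks, 1 was higher and 4 were lower, where 44.9% of all peaks at RefSeq starts were called: 7.56% were higher and 37.3% lower. That background holds starts only, whereas the 12 take in either end of TEAD1 and TEAD4. Both end peaks of TEAD4 are among the 4 lower ones. Of all gene-end peaks, 8.74% were higher and 32.8% lower. The groups did not overlap at 5 of the 12, beside 38.6% of all such peaks. Ordered by vehicle mean, the strongest peak at the start or lower end of each gene ran from VGLL4 (76.6 CPM) through YAP1 (57.6), WWTR1 (55.2), TEAD4 (44.5), TEAD2 (26.8) and TEAD1 (22.99) to TEAD3 (20.2). Neighbours in this order had overlapping vehicle ranges in 4 of 6 cases (YAP1 with WWTR1, WWTR1 with TEAD4, TEAD2 with TEAD1, TEAD1 with TEAD3), and VGLL4 stood above all others. Peak widths differ, and this order is of counts per peak and not of density. The TEAD2 value is of the peak also close to DKKL1, which cannot be assigned to either gene alone. The peaks over the TEAD2 promoter windows had vehicle means of 3.67 and 2.96 CPM. Among the 79 member peaks inside the genes and away from starts, 17 were higher and 4 lower. For such peaks of all protein-coding genes the shares were 18.5% and 10.2%, beside 21.5% and 5.06% here. By strength, of the 47 members below the median strength of all peaks, 8 were higher and 1 lower, and of the 59 at or above it, 12 were higher and 9 lower. All peaks showed 19.0% higher and 4.16% lower in the weaker group, and 12.97% and 22.1% in the stronger.

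A ratio of counts within 1 library is free of any library scaling. For each gene, the called peak with the smallest p-value was set over its strongest start peak. The numerator was chosen by its change, so these ratios are a description with no test. At YAP1 the ratio was 0.0615, 0.0854, 0.0628 and 0.0612 in vehicle libraries 1 to 4 and 0.182, 0.151, 0.160 and 0.119 in the sorbitol libraries, with no overlap. At WWTR1 it was 0.155, 0.123, 0.143 and 0.135 against 0.230, 0.249, 0.200 and 0.197, again without overlap. TEAD3 went the other way, from 1.20, 1.25, 1.29 and 1.08 in vehicle to 0.554, 0.605, 0.607 and 0.511 after sorbitol: its far-end peak was the stronger of the pair in every vehicle library and the weaker in every sorbitol library. At VGLL4 the inner start stood at 0.604, 0.567, 0.603 and 0.555 of the outer start in vehicle and at 0.423, 0.520, 0.423 and 0.494 after sorbitol. TEAD2 ratios did not overlap either (0.184 to 0.261 against 0.0849 to 0.149), while those of TEAD1 and TEAD4 did. The TEAD2 ratio sets the flank peak inside SLC6A16 over the peak also close to DKKL1.

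**Figure D4:**
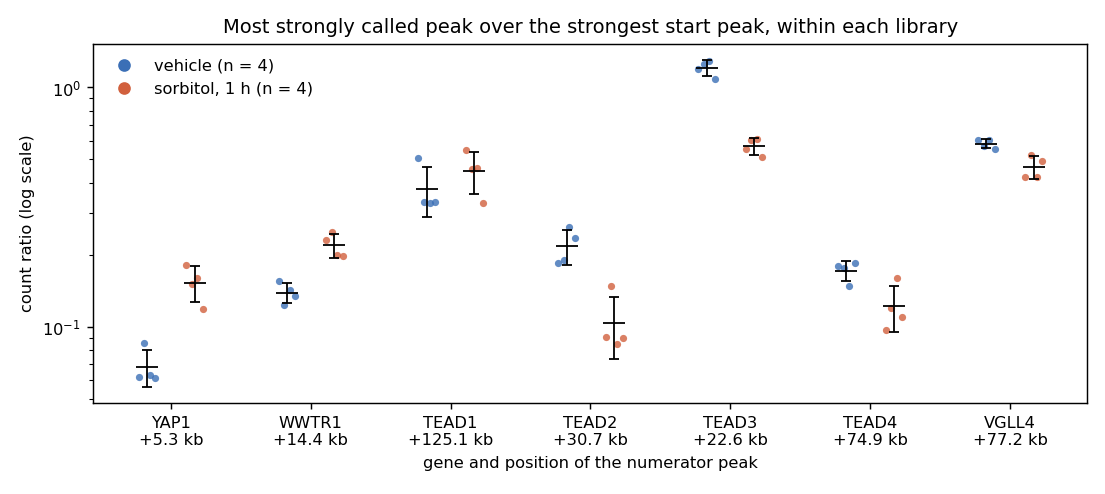
Counts of the called peak with the smallest p-value divided by counts of the strongest start peak in the same library (vertical, log axis), by gene; labels give the position of the numerator peak in kb from the reference start, and dashes with bars the mean and SD of 4. Vehicle and sorbitol points are separate at YAP1, WWTR1, TEAD2, TEAD3 and VGLL4 and overlap at TEAD1 and TEAD4.

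Counts were also summed over all peaks of each gene's window, for 18960 protein-coding genes in a single edgeR fit. Strong peaks weigh most in such totals: the strongest peak held 51.6% of the YAP1 total and 12.7% of the TEAD1 total. For TEAD2 it was the peak also close to DKKL1, with 53.2% of the total. For TEAD3 it was the flank peak shared by FANCE and RPL10A, with 33.5%. YAP1 totals were 106, 101, 103 and 102 CPM in vehicle libraries 1 to 4 and 127, 134, 117 and 141 CPM after sorbitol, without overlap (log2 fold change 0.25, standard error 0.06, edgeR adjusted p = 2.36e-05). WWTR1 totals were 104, 113, 112 and 106 CPM against 138, 141, 133 and 142 CPM, also without overlap (log2 fold change 0.27, standard error 0.05, edgeR adjusted p = 4.95e-06). Both coactivator totals thus rose, although the start peaks of these genes were not called. Over all gene totals, 9.74% were higher and 55.1% lower (64.9% called, 52.8% without overlap), and the median was -0.20 on the log2 scale. TEAD2 (log2 fold change -0.43), TEAD4 (-0.36) and VGLL4 (-0.20) fell, with edgeR adjusted p-values of 8.21e-09, 1.51e-07 and 0.000166. TEAD1 (0.08, edgeR adjusted p = 0.162) and TEAD3 (-0.11, edgeR adjusted p = 0.0741) were not called. The TEAD3 total passed as lower without vehicle 4 or sorbitol 2 (both -0.16), and turned positive with gene-end scaling (0.0613). Summed over the TEAD3 body alone, without its flanks, the estimate was -0.0187 (edgeR adjusted p = 0.835). TEAD1 totals in CPM did not overlap (186.5 to 198.8 against 210.7 to 220.4), while the edgeR estimate rests on TMM scaling, which lowers sorbitol values relative to CPM. Scaling moved the size of all 7 totals. With gene-end scaling YAP1 (0.43) and WWTR1 (0.44) were larger, TEAD2 (-0.26) and TEAD4 (-0.18) were smaller and still called, VGLL4 was no longer called (-0.03) and TEAD1 was (0.25). With the loess offset TEAD2 was -0.22 and TEAD4 -0.13, both called, while VGLL4 was not called (-0.05) and TEAD1 was called higher (0.21). TEAD1 was called higher also with scaling on library totals (0.16) and among totals with a mean of at least 50 counts (0.17). Scaled on contig peaks none of the 7 passed, although the estimates kept their sign and were of like size: YAP1 0.21, WWTR1 0.22, TEAD2 -0.49, TEAD4 -0.42 and VGLL4 -0.25.

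**Figure D5:**
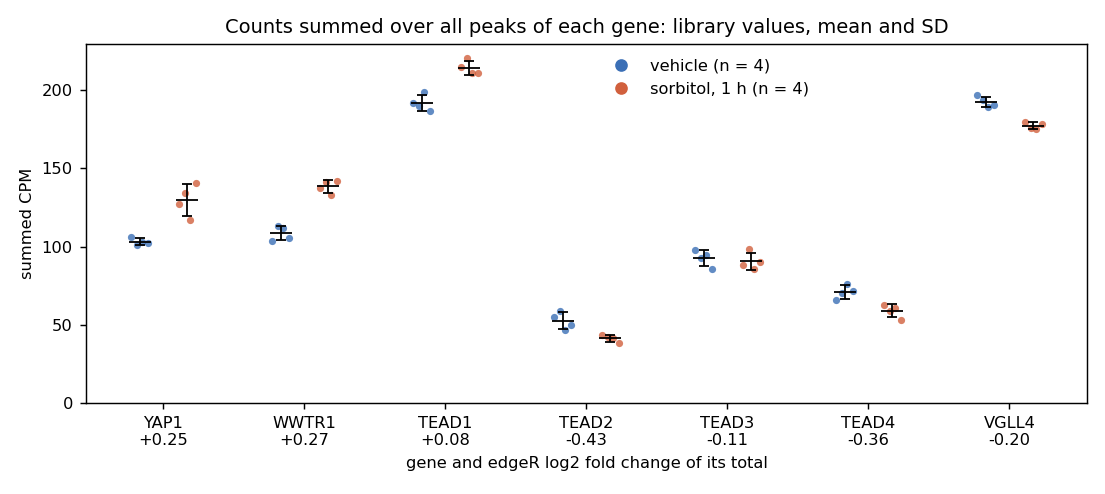
Summed CPM (vertical, from 0) over all peaks of each gene's window, by library, with mean and SD of 4; the label under each gene is the edgeR log2 fold change. YAP1, WWTR1 and TEAD1 points are higher after sorbitol, those of TEAD2, TEAD4 and VGLL4 lower, and those of TEAD3 overlap.

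Surrounding chromatin was compared after these values had been seen. Surroundings are peaks within 1 Mb of the gene body and outside the gene's window. The rest of a chromosome means all its peaks outside that window, so it includes the surroundings. Around YAP1, 23.8% of 80 peaks were higher and none lower, and their median was 0.17 on the log2 scale, while YAP1's own median was 0.04. Around WWTR1, 26.9% of 119 peaks were higher and the median was 0.21, beside 0.32 for the gene. Around TEAD2, 65.6% of 218 peaks were lower and their median was -0.56, beside -0.41 for the gene, and the rest of chromosome 19 had a median of -0.45. TEAD4 (-0.18) and its surroundings (-0.18) had like medians, and so had VGLL4 (-0.17 and -0.12). TEAD3 had 3 of 6 peaks higher, where 2.78% of the 108 peaks around it were higher and 25.9% lower. On the rest of chromosome 6, 23.6% were higher and 7.27% lower. TEAD1 had 5 of 32 higher (15.6%), where 5.43% of the 92 peaks around it were higher. The share was 11.2% on the rest of chromosome 11 and 16.0% over all peaks. Whether the genes follow their surroundings was not tested.

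The rest of the pathway was counted over the same windows. The background for gene totals was 9.74% higher and 55.1% lower with a median of -0.20, and for single peaks 16.0% higher and 13.1% lower. Of 29 Hippo regulators (the kinases STK3, STK4, LATS1 and LATS2 with their adaptors and upstream partners), 5 gene totals were higher, 13 lower and 11 not called. Their median was -0.11 on the log2 scale. Their 314 peaks included 48 higher (15.3%) and 47 lower (14.97%), both near the share of all peaks. VGLL1, VGLL2 and VGLL3 had 2 totals higher and none lower, and 3 of their 14 peaks were higher, too few to set against that background. Among 22 YAP target genes, 8 totals were higher and 7 lower, and of their 273 peaks 26.4% were higher and 7.69% lower, beside 16.0% and 13.1% of all peaks. That difference was not tested. No peak of these lists is shared with the 7 genes. AMOTL2, LATS2 and PTPN14 are in both the regulator list and the target list, so their peaks count in each.

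The summed profile of YAP1 over the 8 libraries was most like those of WAPL (Pearson r = 0.986), IARS2 (0.986) and ASZ1 (0.982), among protein-coding genes outside the 7. Their log2 fold changes were 0.15, 0.20 and 0.54. Within the 7, the correlation with YAP1 was 0.92 for WWTR1 and 0.89 for TEAD1, 0.02 for TEAD3, -0.83 for VGLL4, -0.84 for TEAD2 and -0.91 for TEAD4. These values describe 8 libraries that share their treatment.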

How the data were processed

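Per the series labels, Omni-ATAC-seq libraries from eGFP-YAP HEK293 cells (4 vehicle, 4 sorbitol) were sequenced as paired ends. The authors deposited raw counts for 129536 peaks. Per the submitters' processing notes, tools included Trim Galore 0.6.10, BWA 0.7.17, SAMtools 1.22, MACS2 2.2.9.1 and deepTools 3.5.4, with builds hg38 and GRCh38; how peaks were called, merged and counted is not given in the sources used here. Coordinates are those of the table.

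The 8 libraries were compared with edgeR 4.0.16 in R 4.3.3: filterByExpr (minimum count 10, total 15), which removed 49 peaks, TMM factors, the quasi-likelihood test on treatment, and Benjamini-Hochberg adjustment over all peaks at 0.05. Standard errors are the absolute log2 fold change over the root of F. Alternatives used DESeq2 1.42.0, other scalings, filters and windows, a replicate block, and fewer libraries. Counting error is small for strong peaks, and PCR duplicates are not independent molecules.

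Gene positions and promoters came from RefSeq GRCh38.p14. Start peaks lie within 1 kb of a start in the promoter table, or of either end for TEAD1 and TEAD4. Named peaks were, per gene, the strongest start peak and the smallest p in each direction, all called 2-fold changes, and the 5 strongest in YAP1; other called or start peaks were described after their values were seen. Members and lists were chosen with earlier results of these data known. Libraries with the same replicate number did not deviate together (deviation correlations -0.145 to 0.00691).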

Additional observations from a re-analysis of the deposited data

Results flagged for a closer look

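Among 60 groups of 4 libraries examined, 3 had a single library far from the others in its group. Chance flags about 1 group in 20, which is 3 here. At the YAP1 peak 5.31 kb past the start, vehicle 2 had 4.60 CPM and the other vehicle libraries 3.58 to 3.73 CPM, while the lowest sorbitol library had 8.29 CPM. At the WWTR1 peak 47.17 kb inside, sorbitol 3 had 3.29 CPM and the other sorbitol libraries 1.75 to 1.95 CPM, all above the highest vehicle value of 1.05 CPM. At the TEAD2 flank peak inside SLC6A16, vehicle 1 had 5.45 CPM and the other vehicle libraries 5.80 to 5.83 CPM. All 3 peaks stayed called in the same direction without the library in question.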

How the results depend on the processing

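Of 23 named peaks, 12 kept their direction and side of the threshold under every alternative run for them, and no called member was called the other way under another setting. With contig factors the counts were 14352 changed peaks, 8 members higher and 5 lower, 1 start peak and 0 gene totals called; the cause was not tested. Changed peaks numbered 21385 with a mean of at least 50 counts (58274 tested) and 23275 at the stricter threshold of 0.01, by construction. Over gene bodies alone 6 members were lower, because fewer peaks were counted. The members' median log2 fold change was 0.109 with library totals, -0.0447 with the loess offset, 0.201 with gene-end factors, -0.0217 with contig factors, -0.00582 without replicate 4 of both groups and 0.00218 with 50 kb flanks. By CPM per peak, 1 YAP1 peak away from the start (at 10.11 kb) passed the 95th percentile. By density 2 others passed (at 5.31 and 8.61 kb), so which peaks stood out depended on the measure.

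Estimates near 0 changed sign: the TEAD3 total became 0.103 (loess offset) and 0.0613 (gene-end factors), the outer VGLL4 start 0.0402 and 0.00489 under the same settings, and the YAP1 start -0.0175 without replicate 4 of both groups (-0.0356 to 0.0735 when 1 library was left out). None of these passed the threshold. With 1 library left out at a time there were 30554 to 38650 changed peaks, 16 to 21 members higher, 8 to 12 lower and medians from -0.0288 to 0.0428. Calls numbered 4 to 6 start peaks and 5 to 6 gene totals. By density 2 YAP1 peaks lay above the percentile throughout, each time averaged over libraries of both groups. The replicate block gave 34445 changed peaks with 18 members higher and 10 lower; the labels do not say that a number marks a shared culture. A site at 1 CPM rests on 11.5 to 19.8 counts per library.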
